A study of Sus scrofa with 48 samples.

Results

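The genes described here encode the core proteins of the spliceosome and the main families of RNA-binding proteins around it, measured in liver and fat of fed and fasted pigs. They were chosen by name: every gene whose only symbol in the probe annotation begins with HNRNP, SRSF, SFRS, SNRP, SF3, U2AF or PRPF. Earlier results of these data were known when this rule was set. The rule found 56 of the 6765 genes with 1 symbol on the array. Of these, 10 encode snRNP proteins (SNRP), 9 belong to the SF3 and U2AF factors, 9 are PRPF genes, 11 encode SR proteins (SRSF) and 17 encode hnRNP proteins. Each gene is represented by its brightest probe set by mean log2 signal over all arrays, and 19 of the 56 have more than 1 probe set (88 in all). All 56 carry the same symbol in the RefSeq gene table of the pig.

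The spliceosome removes introns from new transcripts. The small nuclear ribonucleoproteins (snRNPs) recognise the splice sites and carry a ring of Sm proteins on each RNA, the U2AF and SF3 proteins mark the end of the intron and its branch point, and the PRPF proteins act in the assembly and activation of the machine. SR proteins and hnRNPs bind the transcript itself and shift the choice of exons, often in opposite directions. Several SR protein genes control their own level through exons that send the transcript to decay, so that a probe set can read a coding form, a non-coding form or both.

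Liver and fat of 24 Yorkshire gilts gave 48 arrays, 1 per tissue and animal. All animals were 6 months of age and of a line bred to eat little for their growth (low residual feed intake), so every group shares that background. They were homozygous either for the wildtype D298 form or for the N298 form of MC4R, a brain receptor of appetite control, and each genotype had ad libitum feeding or a fast of 3 days, which makes 8 groups of 6 arrays. The labels name the second tissue only as fat, without the depot.

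Values are linear signal intensities that the authors scaled to a common level on each array, and changes are log2 differences of these signals. A difference was called at an adjusted p under 0.05 in limma, adjusted over all 23999 probe sets. The summed signal of 14 measured hepatocyte markers was at least 371466 in liver and at most 24054 in fat, and that of 11 adipocyte markers at least 72456 in fat and at most 8014 in liver, so each tissue carried its own markers. Median signals per array lay at 122 to 149 for liver and at 159 to 192 for fat. The array with the lowest median correlation to the others of its group was D298 fasted replicate 2 in liver (0.930) and D298 fasted replicate 3 in fat (0.911). Precision is limited by the 12 gilts per feeding state in each tissue.

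Most of these genes gave a clear signal: 54 of 56 were brighter than the median probe set in each tissue. In liver the exceptions were SRSF12, an SR protein that represses splicing, and HNRNPU, and in fat they were SRSF12 and U2AF2. Levels of different genes are not compared, since probe sets differ in how strongly they bind.

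The first question was how 3 days without feed changed these genes in fat. In fasted fat 16 of the 56 genes rose and 12 fell, against 34.2% of all 6765 genes called (15.3% higher and 18.9% lower). Most members are bright, and when only probe sets brighter than the median were tested, 48.5% of 4822 genes were called in fat. The members split by role: 7 of 10 snRNP genes fell and none rose, 5 of 9 PRPF genes rose and none fell, and 8 of 17 hnRNP genes rose while 2 fell. The SF3 and U2AF group had 1 rise and 1 fall among 9 genes, and the SR proteins 2 of each among 11. The median change of the 56 genes was 0.09 on the log2 scale against 0.01 for all genes, whereas the median was -0.34 for the snRNP genes, 0.21 for the PRPF genes and 0.21 for the hnRNPs. All 28 called genes changed in the same direction in D298 and in N298 gilts. The call rests on the average of both genotypes, which favours such agreement, so it is not a replication.

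**Figure D1:**
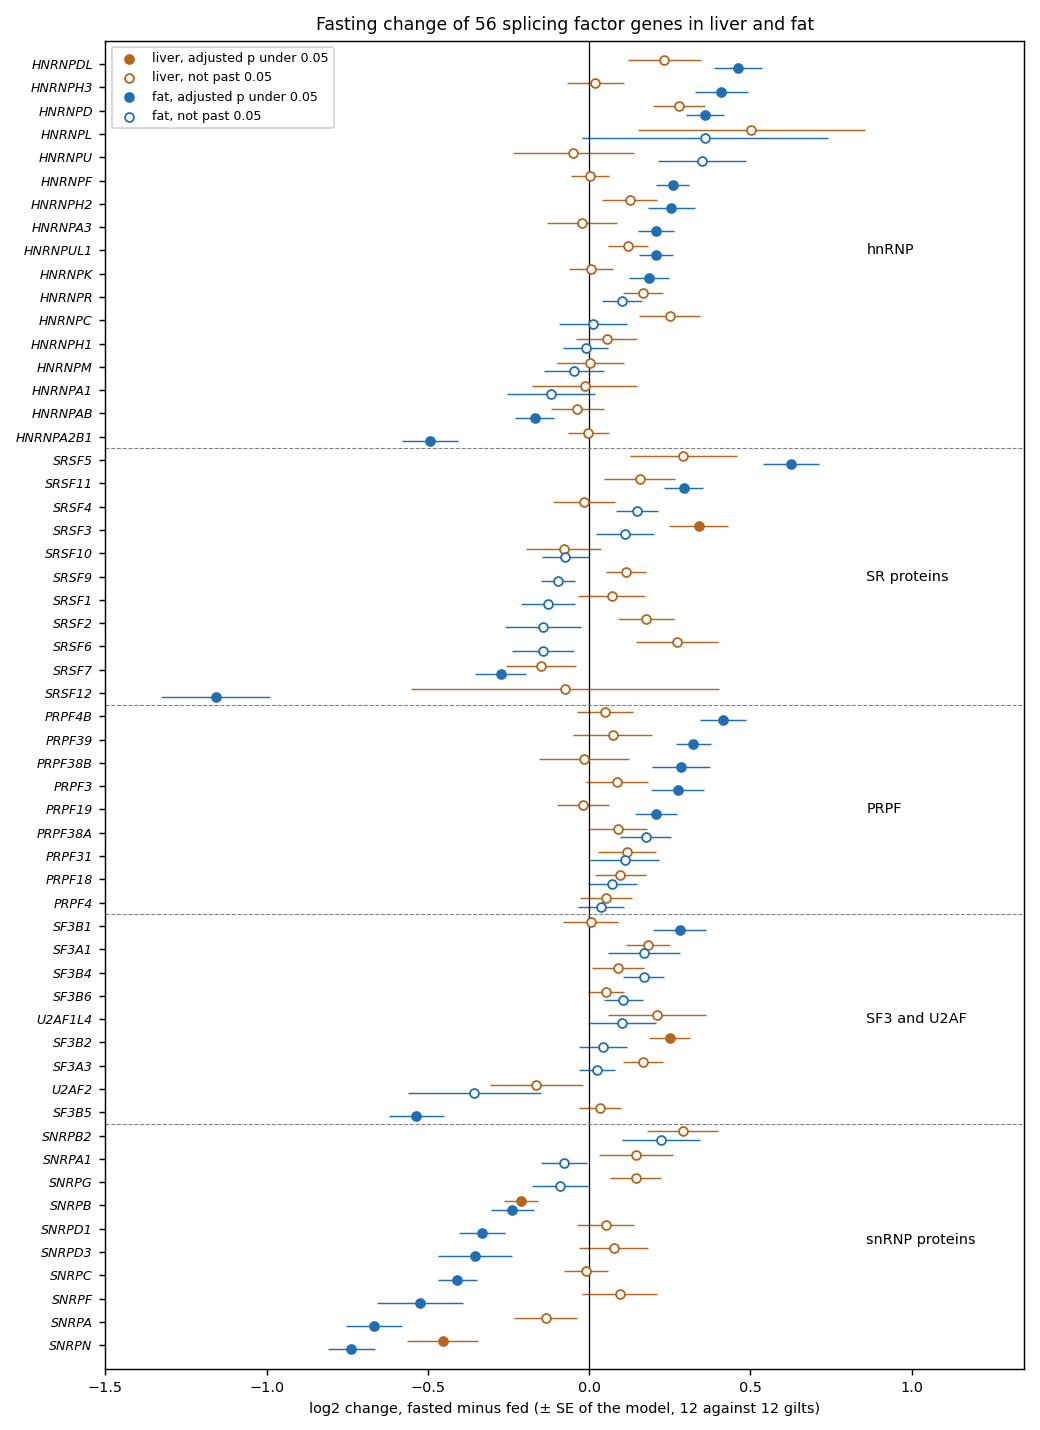
Log2 change from fed to fasted (x axis, ± SE of the model, 12 against 12 gilts) of each of the 56 genes in liver (brown) and fat (blue), ordered within 5 role classes; filled symbols passed an adjusted p of 0.05. In fat the snRNP genes lie mostly left of 0, with 7 filled, and all 9 PRPF genes lie right of it, whereas only 4 liver symbols are filled.

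Among the snRNP genes the clearest fall was that of SNRPN, an imprinted gene that encodes the SmN form of the SmB protein. Its signal in fat was 1120 to 1880 in fed gilts (median 1528) and 797 to 1049 in fasted gilts (median 912). The lowest fed gilt was above the highest fasted gilt, so the groups did not overlap. The fall was 0.74 ± 0.0731 (SE) on the log2 scale, or 1.67-fold (adjusted p = 2.87e-07), and a second, dimmer SNRPN probe set gave -0.63. The related SNRPB, which encodes SmB itself in most tissues, fell less, by 0.24 ± 0.0675 (adjusted p = 0.0122). Its fed signals of 1387 to 1954 (median 1752) overlapped the fasted ones of 1171 to 1758 (median 1582).

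The U1 snRNP proteins, which help to recognise the start of the intron, also fell. SNRPA had a signal of 737 to 1342 in fed fat (median 958) and 477 to 759 in fasted fat (median 619). Of the 12 fasted gilts 10 were below all fed gilts, and the fall of 0.67 ± 0.0855 corresponds to 1.59-fold (adjusted p = 6.64e-06). SNRPC read 1617 to 2233 in fed gilts (median 2042) and 1287 to 1785 in fasted gilts (median 1440), a fall of 0.41 ± 0.0604 (adjusted p = 3.45e-05). Of the 12 fasted gilts 9 were below all fed gilts.

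Other members of the Sm ring moved the same way. SNRPF fell by 0.52 ± 0.135, from a median of 302 (205 to 409.5) to 221 (136 to 306), with a wide overlap. SNRPD1 fell by 0.33 ± 0.0711, from a median of 1280 (958 to 1654) to 975 (882 to 1148). SNRPD3 fell by 0.35 ± 0.115, a call lost without replicate number 3, 4 or 6. The remaining 3 snRNP genes were not called: SNRPG gave -0.09 (adjusted p = 0.517), and the U2 snRNP proteins SNRPA1 and SNRPB2 gave -0.08 and 0.22. SNRPB2 was the single snRNP gene with a positive change in fat.

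**Figure D2:**
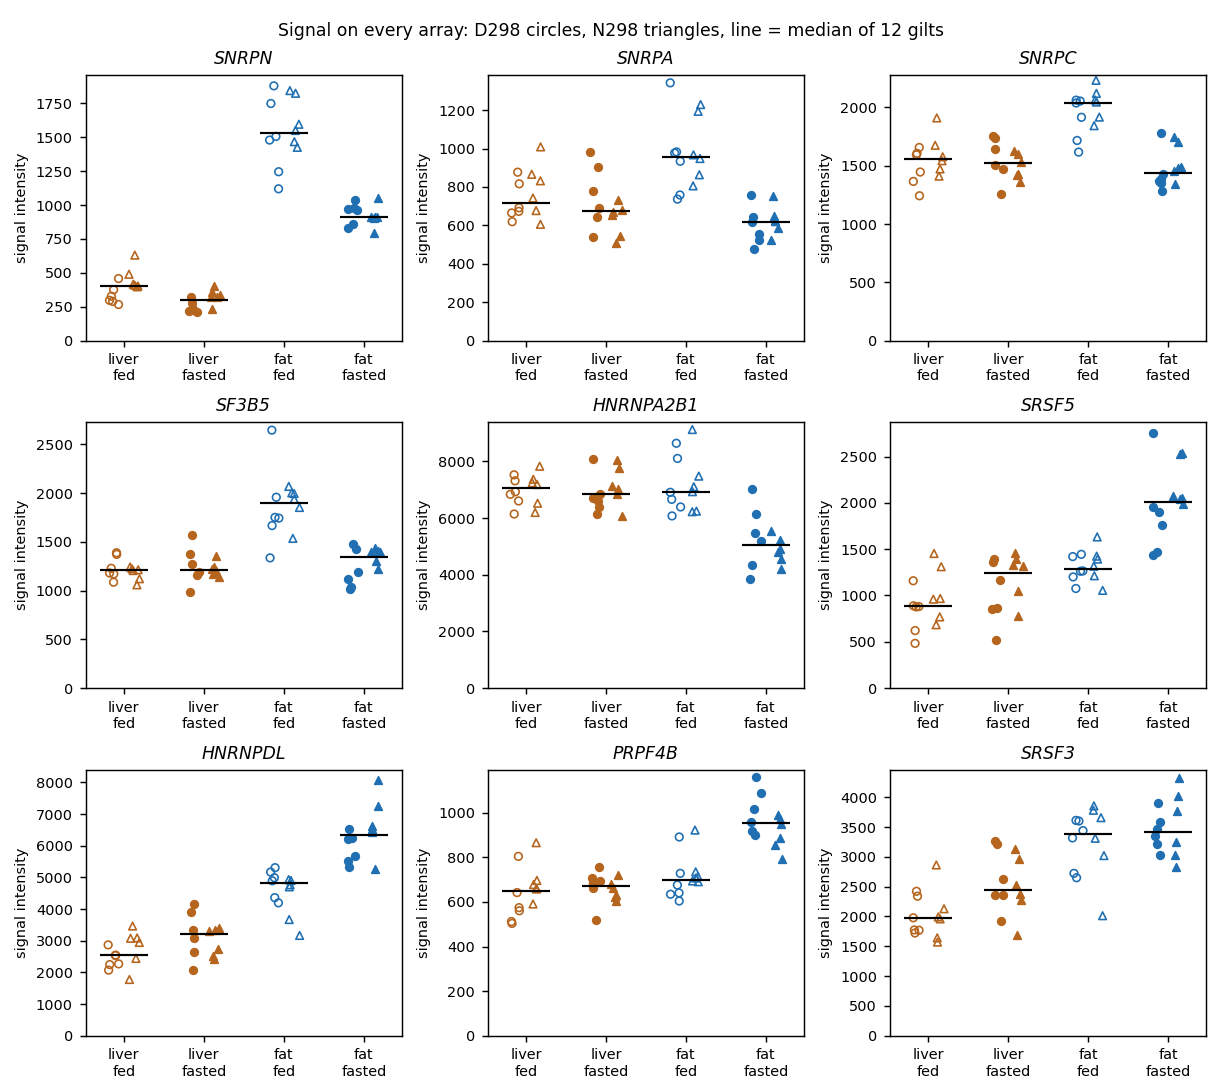
Signal intensity on every array (y axis, linear) of 9 genes in liver fed, liver fasted, fat fed and fat fasted gilts; circles are D298, triangles N298, and the line is the median of 12 gilts. SNRPN is the one gene shown whose fed and fasted fat arrays do not overlap, and its fat signals all exceed its liver signals.

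Branch point and intron end factors gave 1 call each way. SF3B5, the smallest subunit of the SF3b complex, fell by 0.54 ± 0.0854 (adjusted p = 7.87e-05). Its fed signals were 1335 to 2645 (median 1895) and its fasted signals 1015 to 1474 (median 1348), so that 1 fed gilt lay within the fasted range. Of the 12 fasted gilts 6 were below all fed gilts. SF3B1, the large subunit that grips the branch point helix, rose by 0.28 ± 0.0816, from a median of 5816 (5329 to 6514) to 7065 (5581 to 9567), and this call was lost when each array was centred on its own median and on its second probe set. SF3A1 gave 0.17 ± 0.111 and U2AF2, the large U2AF subunit that binds the pyrimidine tract, gave -0.36 ± 0.206, neither of which passed. U2AF2 was dim in fat (fed median 100.1, fasted median 91.0).

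All 9 PRPF genes had a positive change in fat as deposited, against 3472 of all 6765 genes. Median-centring moved the median of all genes from 0.01 to -0.07, a shift larger than the smallest PRPF changes. PRPF4B, a kinase of the tri-snRNP, rose by 0.42 ± 0.0713 or 1.33-fold (adjusted p = 0.000171), from 605 to 923 in fed gilts (median 701) to 795 to 1161 in fasted gilts (median 953). Of the 12 fasted gilts 7 were above all fed gilts. PRPF39, a U1-associated factor, rose by 0.32 ± 0.0532 (adjusted p = 0.00011), from a median of 1126 (974 to 1423) to 1469 (1161 to 1600). PRPF38B (0.28), PRPF3 (0.27) and PRPF19 (0.21), the last a ubiquitin ligase of the activated spliceosome, also rose, but these 3 calls were lost with quantile normalization and with median-centring. Without replicate number 1, and without number 4, PRPF19 and PRPF38B were not called and 3 PRPF genes rose. PRPF38A, PRPF31, PRPF18 and PRPF4 gave 0.04 to 0.18 and did not pass.

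Of the SR proteins SRSF5 rose and SRSF12 fell by the widest margins. SRSF5, an SR protein known to respond to insulin and to growth signals, read 1055 to 1632 in fed fat (median 1291) and 1442 to 2758 in fasted fat (median 2011). It rose by 0.63 ± 0.0881, or 1.54-fold (adjusted p = 1.98e-05), and 10 of the 12 fasted gilts were above all fed gilts. SRSF12 fell by 1.16 ± 0.169 (adjusted p = 2.95e-05), from 92.0 to 218 (median 107) to 27.8 to 71.0 (median 54.7). The fed and fasted arrays did not overlap, but both ranges lie in the dim part of the scale. SRSF11 rose by 0.29 ± 0.0614, and the next 2 of its probe sets gave 0.37 and 0.34. SRSF7, a shuttling SR protein also involved in mRNA export, fell by 0.27 ± 0.0787, a call lost without replicate number 1 and without number 3. SRSF1, SRSF2, SRSF3, SRSF6 and SRSF10, the most studied of the family, gave -0.13, -0.14, 0.11, -0.14 and -0.07 and were not called in fat.

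Among the hnRNPs HNRNPDL and HNRNPD, close relatives that bind AU-rich RNA, rose. HNRNPDL went from 3168 to 5309 in fed fat (median 4832) to 5276 to 8092 in fasted fat (median 6334), a rise of 0.46 ± 0.0739 (adjusted p = 8.01e-05) with 11 of the 12 fasted gilts above all fed gilts. Its second probe set gave 0.14 (adjusted p = 0.193). HNRNPD rose by 0.36 ± 0.0595 (adjusted p = 0.000115), from a median of 3260 (3066 to 3711) to 4281 (3496 to 4932), and its second probe set gave 0.26. HNRNPH3, a relative of the G-tract binder hnRNP H, rose by 0.41 ± 0.0825, from a median of 1723 (1450 to 2286) to 2351 (1743 to 2799). HNRNPF, another G-tract binder, rose by 0.26 ± 0.0512. The rises of HNRNPH2 (0.25), HNRNPA3 (0.21), HNRNPUL1 (0.21) and HNRNPK (0.19) were lost with median-centring. On their second probe sets HNRNPH2, HNRNPUL1 and HNRNPK were not called, and HNRNPK gave -0.0157.

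HNRNPA2B1, which packages nuclear transcripts and sorts RNA into vesicles, was the hnRNP with the largest fall. Its brightest probe set read 6078 to 9127 in fed fat (median 6922) and 3857 to 7044 in fasted fat (median 5041), a fall of 0.49 ± 0.0863 (adjusted p = 0.000207) with overlapping ranges. Its second probe set rose by 0.45 (adjusted p = 0.00021) and the third gave 0.17, so the direction for this gene depends on the probe set. HNRNPAB fell by 0.17 ± 0.0608 (adjusted p = 0.0463), a call lost when any 1 of the 6 replicate numbers was left out. HNRNPA1, HNRNPC and HNRNPU gave -0.12, 0.01 and 0.35 and were not called.

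Fed and fasted fat did not overlap for 2 members, SNRPN and SRSF12, both lower. Over all genes this held for 3.15% (0.695% higher and 2.45% lower). Of the 28 calls in fat 16 were kept in every alternative fit that tested the same probe set: SNRPA, SNRPC, SNRPD1, SNRPF, SNRPN, SF3B5, PRPF39, PRPF4B, SRSF5, SRSF11, SRSF12, HNRNPA2B1, HNRNPD, HNRNPDL, HNRNPF and HNRNPH3. SRSF12 is too dim to be among the bright probe sets and was not tested there. On the second brightest probe set 3 of the 16 did not keep their call: HNRNPA2B1 rose, and HNRNPDL and PRPF39 (0.44, adjusted p = 0.138) were not called. The balance of rises and falls depends on the scaling. Among all called genes in fat 44.8% were higher as deposited and 29.3% after each array was centred on its median, and the members' rises went from 16 to 8.

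The class means show the same split array by array. The mean log2 signal of the 10 snRNP genes in fat was 9.85 to 10.35 in fed gilts (median 10.12) and 9.63 to 10.09 in fasted gilts (median 9.82). In liver its medians were 9.61 and 9.60. The PRPF mean in fat went from 9.19 to 9.39 (median 9.31) to 9.42 to 9.62 (median 9.50). As deposited the 2 sets of arrays were fully apart, but narrowly. The fed array at 9.39 had a median signal of 164 and the fasted array at 9.42 one of 174, so these 2 cross after median-centring. The snRNP mean less the mean of the other members, a difference within each array that a shift of the whole array, such as median-centring, does not alter, had a median of -0.25 in fed and -0.63 in fasted fat, and -0.39 and -0.48 in liver. These class values summarise calls already given and carry no test of their own.

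**Figure D3:**
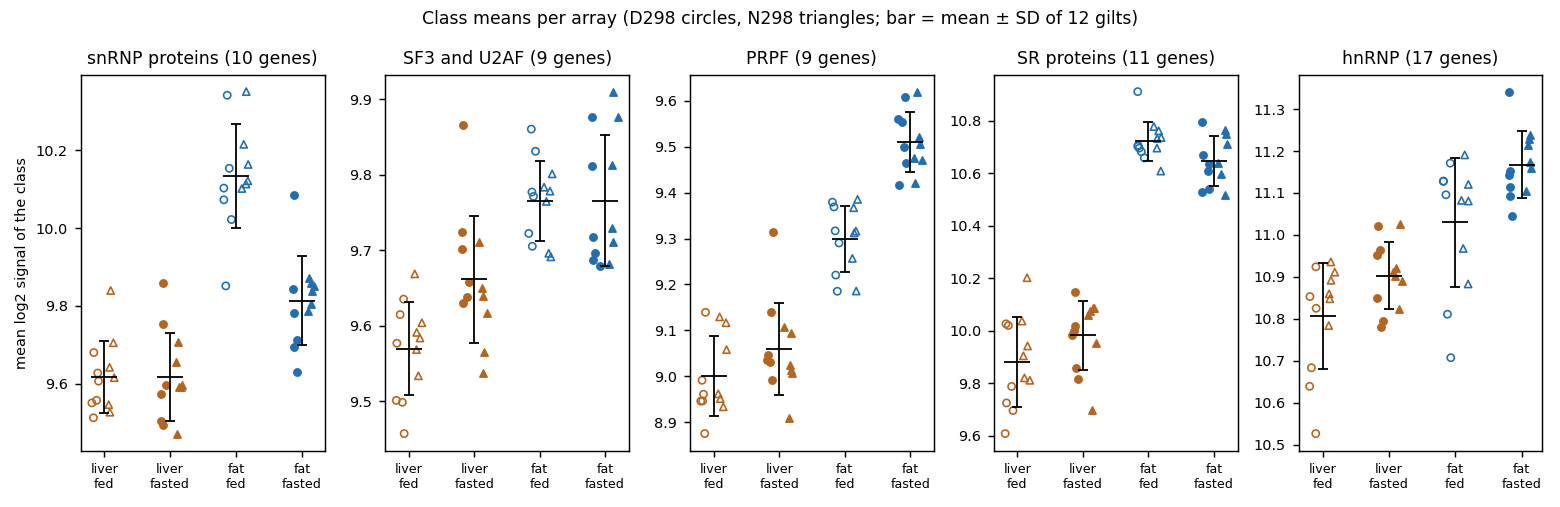
Mean log2 signal (y axis) over the genes of each of the 5 role classes on every array, by tissue and feeding state; circles are D298, triangles N298, and the bar is the mean ± SD of 12 gilts. Fasted fat is lower than fed fat for the snRNP proteins (medians 9.82 and 10.12) and higher for PRPF (9.50 and 9.31).

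Other measures differed between fed and fasted fat. The log2 ratio of the 3′ to the 5′ control probe sets of GAPDH was 0.608 to 1.51 in fed fat (median 1.22) and 0.592 to 2.44 in fasted fat (median 1.82), whereas in liver the medians were 0.972 and 1.01. Of 12 endothelial markers 7 were higher in fasted fat, with a summed signal of 13247 to 19324 in fed and 17100 to 28607 in fasted gilts. Of 6 fibroblast markers 4 were lower, with sums of 34257 to 53710 and 24100 to 42055. Of 11 adipocyte markers 1 was higher and 2 were lower. The sum of 11 skeletal muscle markers ranged from 1385 to 72400 in fed and from 1622 to 116595 in fasted fat. The part of these differences in the changes of the splicing genes was not tested. In tissue RNA, fewer cells of a type and less RNA per cell cannot be told apart.

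The same fast changed few of these genes in liver. There 2 of 56 genes rose and 2 fell, against 7.2% of all genes called (4.09% higher and 3.1% lower), and 11 members (19.6%) had an unadjusted p under 0.05, against 23.1% of all genes. With only probe sets brighter than the median tested, 12.5% of 4996 genes were called in liver. SRSF3, the smallest SR protein, rose by 0.34 ± 0.0914 (adjusted p = 0.0347), from 1570 to 2864 in fed liver (median 1969) to 1690 to 3262 in fasted liver (median 2449). SF3B2, an SF3b subunit, rose by 0.25 ± 0.0639 (adjusted p = 0.025), from a median of 553 (431 to 669) to 673 (543 to 788). In both genes the fed and fasted ranges overlapped. Of the 12 fasted gilts 4 were above all fed gilts for SRSF3 and 7 for SF3B2. Without the replicate number in the model neither rise was called.

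Both falls in liver were in the SmB and SmN genes. SNRPN fell by 0.45 ± 0.11 (adjusted p = 0.0178), from 266 to 631 in fed liver (median 399.8) to 211 to 404 in fasted liver (median 297.5). SNRPB fell by 0.21 ± 0.0521 (adjusted p = 0.02), from a median of 1346 (1167 to 1603) to 1167 (1024 to 1251). These are the 2 genes of the 56 that were called in both tissues, each in the same direction. The second SNRPN probe set gave -0.22 in liver (adjusted p = 0.423). None of the 4 liver calls was kept under every alternative: all 4 were lost without replicate number 2 and without replicate number 4, and at least 1 of them without each other number. SNRPN was lost in those 2 fits alone. Over all called genes in liver 56.9% were higher as deposited and 74.4% after median-centring, under which 4 members rose and 1 fell.

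HNRNPD gave 0.28 ± 0.0819 in liver (adjusted p = 0.0566), just outside the threshold and close to its rise in fat. SRSF5 gave 0.29 ± 0.166 (adjusted p = 0.401), with signals of 483 to 1453 in fed and 525 to 1464 in fasted liver. The other genes fixed by name that were not called in liver lay between -0.16 (U2AF2) and 0.27 (SRSF6). Fasted and fed liver arrays overlapped for every member, and did not overlap for 0.843% of all genes (0.414% higher and 0.429% lower).

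Whether the fasting responses differ between tissues was tested in a fit of the 48 arrays that kept each animal as a random block. The response in fat minus that in liver was called for 12 members, 3 higher and 9 lower, against 24% of all genes (8.91% higher and 15.1% lower). With only probe sets brighter than the median tested, the share was 36.2% of 4970 genes. All 10 snRNP genes had a negative difference on their brightest probe set, against 3346 of all 6765 genes. Of the 10, 5 passed: SNRPF (-0.62 ± 0.174, adjusted p = 0.00946), SNRPA (-0.53 ± 0.135, adjusted p = 0.00377), SNRPD3 (-0.43), SNRPC (-0.40 ± 0.0851, adjusted p = 0.000563) and SNRPD1 (-0.38). In liver the changes of these 5 genes were between -0.13 and 0.10 and none was called. The call of the SNRPD3 difference was lost when any 1 of replicate numbers 1 to 5 was left out. The dim second probe set of SNRPA1 went the other way, with -0.53 in liver and 0.56 in fat, and its difference was called. For SNRPN, which fell in both tissues, the difference was -0.28 ± 0.127 (adjusted p = 0.128), and for SNRPB it was -0.03. The SNRPN difference was called with quantile normalization and with median-centring, so its lack of a call rests on the scaling.

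Outside the snRNP genes SF3B5 (-0.57 ± 0.104, adjusted p = 5.77e-05), HNRNPA2B1 (-0.49 ± 0.102, adjusted p = 0.000411), SRSF6 (-0.42) and SRSF9 (-0.21) had a lower response in fat. HNRNPH3 (0.39 ± 0.12, adjusted p = 0.0184), PRPF4B (0.37 ± 0.0996, adjusted p = 0.00716) and HNRNPF (0.26 ± 0.0845) had a higher one. SRSF6 and SRSF9 were called here although neither was called in fat or in liver alone. Both calls were lost with the replicate block beside the gilt block. On the second probe sets the difference was 0.39 for SRSF6 (adjusted p = 0.125), 0.0626 for SRSF9 (adjusted p = 0.873) and 0.23 for HNRNPA2B1 (adjusted p = 0.238), each opposite in sign to the brightest and not called. Of the 12 calls SNRPC, SF3B5 and HNRNPA2B1 were kept in every alternative fit of the same probe set, and SNRPC and SF3B5 have no second one. With median-centring the 3 higher calls were lost, the median of all genes moved from 0.01 to -0.14, and the higher share of all called genes went from 37.1% to 16.5%. Without replicate number 3 no member was called higher, and without replicate number 4 the members called lower went from 9 to 4 and without number 5 to 5.

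The level of these genes in fat and liver was compared within the same gilts. As deposited, 36 of 56 genes were higher in fat, 11 were lower and 9 were not called, against 80.3% of all genes called (46.9% higher and 33.4% lower). With only probe sets brighter than the median tested, 86.9% of 4970 genes were called. The median difference was 0.26 for the members and 0.14 for all genes. This balance rests on the scaling: after median-centring the median of all genes was -0.22 and that of the members -0.10, with 18 members higher and 24 lower in fat, and the higher share of all called genes moved from 58.4% to 37.8% (49.8% with quantile normalization). With each scaling the members' median lay above that of all genes.

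**Figure D4:**
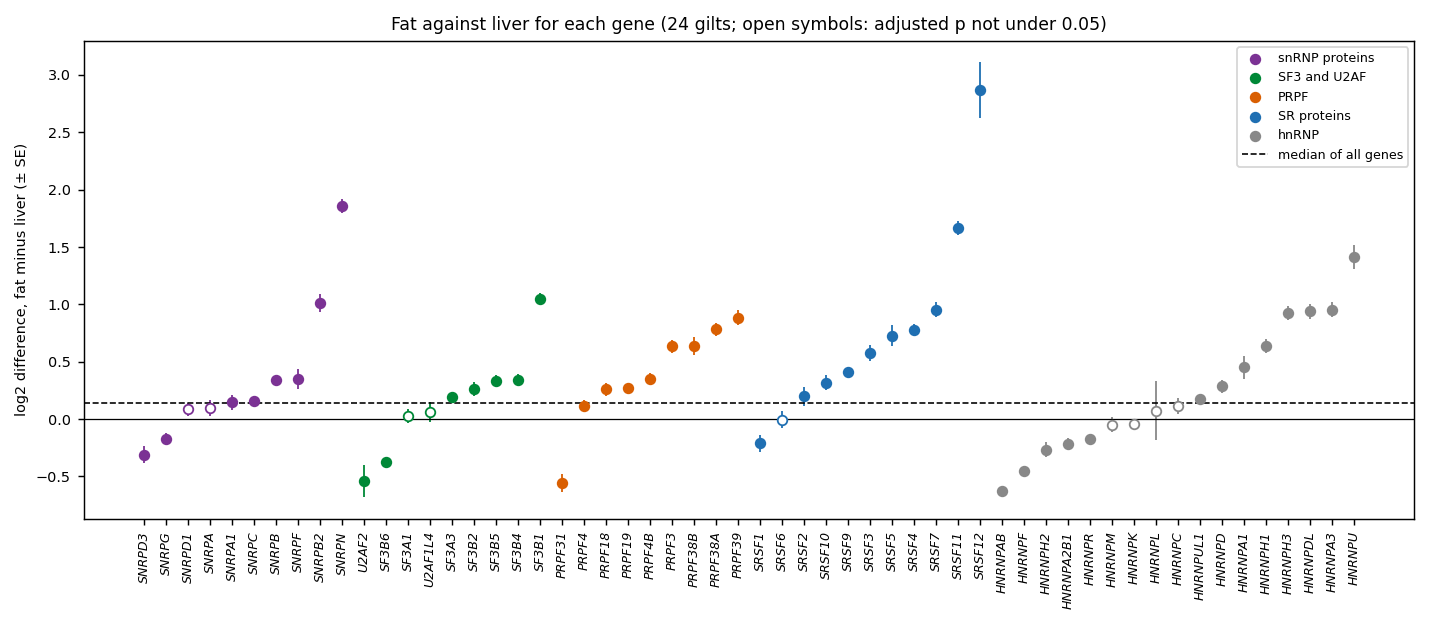
Log2 difference between fat and liver (y axis, ± SE of the model, 24 gilts) of each of the 56 genes, grouped and coloured by role class; open symbols did not pass an adjusted p of 0.05, and the dashed line is the median of all genes (0.14). SRSF12 (2.87), SNRPN (1.86), SRSF11 (1.67) and HNRNPU (1.41) stand highest and HNRNPAB (-0.63) lowest, but SRSF12 is so dim in liver that its difference is not read as a size.

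On its brightest probe set SNRPN was 3.62-fold higher in fat (log2 1.86 ± 0.0634, adjusted p = 7.41e-30). Its lowest fat signal of 797 was above its highest liver signal of 631. The second SNRPN probe set gave a smaller log2 difference of 1.08. SRSF11, an SR-related protein that binds U2AF, was 3.17-fold higher (1.67 ± 0.0604), with 4251 to 7375 in fat and 1210 to 2308 in liver. Its other probe sets gave 1.49, 1.41, 1.46 and, for the dimmest, 0.17 (adjusted p = 0.216). SF3B1 was 2.07-fold higher (1.05 ± 0.0536), with at least 5329 in fat and at most 3894 in liver, and its second probe set gave 0.55. These 3 genes and HNRNPA3 and SRSF4 are the 5 members whose fat arrays were all above all liver arrays, which held for 12.5% of all genes (10.5% were all lower in fat, and 23.1% were apart in either direction).

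HNRNPU, a nuclear scaffold protein, was 2.66-fold higher in fat (1.41 ± 0.103) at low signals: 57.4 to 160 in liver and 136 to 408 in fat. SRSF12 had the largest difference (2.87 ± 0.241), with 3.00 to 30.1 in liver and 27.8 to 218 in fat. Its liver signals are among the dimmest of the array, no detection calls were used here, and its fold is therefore not read as a size. The members called lower in fat by the widest margins were HNRNPAB (-0.63 ± 0.0469), PRPF31 (-0.56 ± 0.0791), U2AF2 (-0.54 ± 0.138), HNRNPF (-0.45 ± 0.0423) and SF3B6 (-0.38 ± 0.0434), the last a subunit that touches the branch point. These 5 kept their direction with every scaling, but HNRNPF was not called with quantile normalization. By role, 9 of 11 SR genes and 8 of 9 PRPF genes were higher in fat as deposited, against 8 of 17 hnRNPs and 46.9% of all genes. After median-centring these counts were 6 SR genes, 4 PRPF genes and 5 hnRNPs.

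Where a gene had several probe sets they did not always give the same answer. For fasting in fat, the brightest and the second probe set had the same sign in 12 of 19 genes. The brightest was called in 11 of these genes and the second in 7. SRSF6, whose gene carries a well known poison exon, had 6 probe sets on the array. In fat they gave fasting changes of -0.14, 0.49, -0.13, 0.37, -0.06 and 0.33 in order of brightness, of which the 3 positive changes passed and the 3 negative ones did not. The probe sets with 0.49 and 0.37 were also higher in fat than in liver, by 1.54 and 1.77 on the log2 scale, whereas those with -0.14 and -0.13 gave -0.01 and -0.29. The probe set with 0.33 was not higher in fat (0.03, adjusted p = 0.792), and that with -0.06 gave 0.09.

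SRSF1 showed a similar spread, with fasting changes in fat of -0.13 and 0.04 for the 2 brighter probe sets and -0.53 for the third (adjusted p = 0.00274). For SNRPA1 the dim second probe set rose by 0.56 (adjusted p = 0.000849) where the brightest gave -0.08. In the comparison of fat with liver HNRNPA2B1, PRPF38B, SNRPG and SRSF6 each had probe sets called in opposite directions. SRSF10, a splicing repressor with 5 probe sets, had no fasting call on any of them, with values in fat from -0.07 to 0.31. Which transcript form each probe set reads is not known here.

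The MC4R genotype gave no call among the 56 genes, nor among all 6765 genes (0%), in limma in either tissue, and neither did the interaction of genotype and fasting (0%). At an unadjusted p under 0.05 there were 2 members in liver and 1 in fat for genotype, against 5.07% and 5.35% of all genes. For the interaction there was 1 member in each tissue, against 6.62% of all genes in liver and 6.73% in fat. The smallest p was that of SNRPN in liver, which was higher in N298 than in D298 gilts by 0.43 ± 0.11 (adjusted p = 0.691 in limma). Its fed liver signals were 266 to 458 in D298 (median 312) and 397 to 631 in N298 (median 412), and the fasted ones 211 to 318 (median 229) and 235 to 404 (median 330), so the genotypes overlapped in both feeding states. The next were HNRNPD (0.19, adjusted p = 0.951) and HNRNPK (0.14, adjusted p = 0.951) in liver and, in fat, SRSF7 (-0.19, adjusted p = 0.879), SNRPF (0.27, adjusted p = 0.912) and HNRNPL (0.77, adjusted p = 0.913). For the interaction HNRNPD in liver (-0.35, adjusted p = 0.85) and HNRNPDL in fat (0.33, adjusted p = 0.855) came first.

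HNRNPL, which binds CA-rich RNA, varied widely between gilts. In fat 2 fed D298 gilts read 127 and 172, whereas the other 22 gilts read 923 to 3077. The same gilts, replicate numbers 2 and 6, were the lowest in liver, at 301 and 164, against 836 to 2917 for the others. The fasting change of HNRNPL was 0.36 ± 0.382 in fat and 0.50 ± 0.352 in liver and was not called. Within D298 gilts, which include these 2 animals, it was 0.83 ± 0.54 in fat and 0.80 ± 0.498 in liver, and within N298 gilts -0.11 ± 0.54 and 0.21 ± 0.498, again without a call. The genotype difference of 0.77 in fat includes the same 2 animals. The gilts fall into 2 separate clusters, so no correlation over all of them is given. HNRNPL has 1 probe set on the array.

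**Figure D5:**
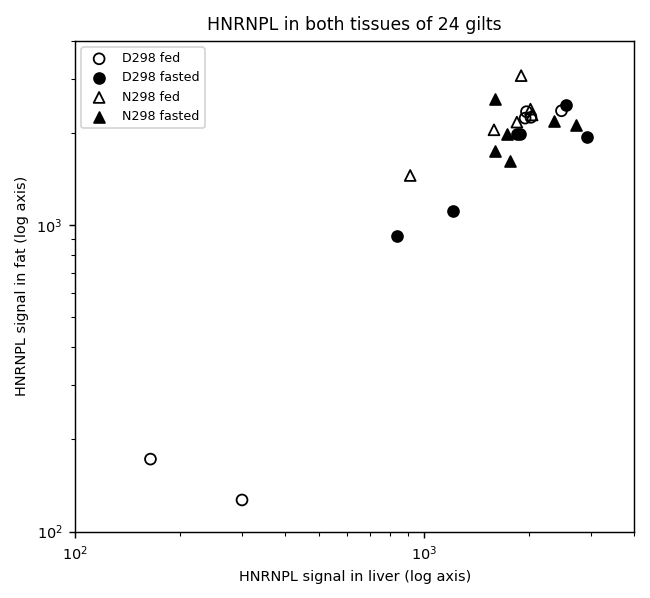
HNRNPL signal in fat (y axis) against liver (x axis) of the same 24 gilts, both on log axes; circles are D298, triangles N298, open fed and filled fasted. The 2 fed D298 gilts at 127 and 172 in fat are also the lowest in liver (301 and 164).

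Liver and fat of a gilt share the animal, and the other members were compared between them in the same way. They also share the replicate number, whose mean was not taken off, so animal and block cannot be told apart here. After the mean of each genotype and feeding group was taken off, Pearson's r between liver and fat over the 24 gilts was positive for 46 of the 56 genes (82.1%, median r 0.241), against 67.9% of all 6765 genes (median r 0.126). In 2-sided permutation tests within groups (100000 permutations) 13 members (23.2%) had an unadjusted p under 0.05 by both Pearson's r and Spearman's rho, against 10.3% of all genes. All genes here include the dim ones, whereas 54 of the 56 members were brighter than the median probe set in each tissue. The share among bright genes alone was not computed. After Benjamini-Hochberg adjustment over all genes, HNRNPL, with its separate clusters, was the one member to pass by both, against 1.26% of all genes. No other member passed. PRPF38A, a factor of spliceosome activation, had r = 0.611 (p = 0.00113, adjusted 0.0555) and rho = 0.636 (p = 0.00166, adjusted 0.0789), and r = 0.762 without the 2 gilts farthest from the median in liver. PRPF18, a factor of the second splicing step, had r = 0.648 (p = 0.00123, adjusted 0.0586) and rho = 0.624 (p = 0.00284, adjusted 0.106), and r = 0.685 without them. HNRNPA1, the best known of the hnRNPs, had r = 0.671 (p = 0.0019, adjusted 0.0735) and rho = 0.624 (p = 0.00455, adjusted 0.135), and r = 0.523 without them.

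The rest of the RNA processing machinery was read from 3 further lists, whose counts in fat stand beside 15.3% of all genes higher and 18.9% lower. Values of list genes are given from the main fit alone, as deposited, without the alternative fits or second probe sets. Of 62 other spliceosome genes 38 were measured, and in fasted fat 10 rose and 6 fell, with a median of 0.05. SF1 (0.85), which binds the branch point before the U2 snRNP, and CDC5L (0.83), a core protein of the Prp19 complex, rose most. PPIL1 (-0.47), TXNL4A (-0.32) and PPIH (-0.30), small proteins of the spliceosome, fell. PPIL1 rose in liver (0.29), and its response differed between the tissues by -0.76 (adjusted p = 0.000122).

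Of 55 further splicing regulators 35 were measured, and 10 rose and 3 fell in fasted fat, with a median of 0.15. The SR protein kinase CLK1 rose by 0.50 and its relative CLK4 by 0.38. CIRBP, a cold-induced RNA-binding protein, rose by 0.49, and the intron-binding RBM25 by 0.44. YBX1, a broad mRNA-binding protein, fell in both tissues, by 0.25 in fat and by 0.28 in liver. Of 45 genes of capping, cleavage, export and snRNP assembly 28 were measured, and 5 rose and 2 fell in fat. GEMIN5, which recognises snRNAs for Sm ring assembly, rose by 0.74 (adjusted p = 5.35e-06), and CLNS1A, a chaperone of the Sm proteins, fell by 0.19. In liver, where 7.2% of all genes were called, PPIL1 and YBX1 were the only genes of the 3 lists to be called.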

How the data were processed

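Total RNA was prepared with a column kit with DNase digestion and labelled by the one-cycle biotin method, per the labels' protocols, and affy and MAS5 are named in the submitters' processing notes. The deposited table holds linear signal intensity per probe set: on each array the mean, trimmed by 2% at either end, was 500, so the authors had scaled all arrays alike. No detection calls were used here. Log2 was taken with nothing added.

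Of 24123 probe sets, 124 controls were left out and the other 23999 tested, dim ones included. In the annotation 10069 probe sets had 1 gene symbol, 198 had several and 13732 had none. The members and gene lists were chosen with earlier results of these data known. Named with values are the largest called changes of each comparison (6 or 5 each way). The smallest p values are named where fewer than 3 were called, and so is a set of well known members. Further members are named to account for every call. List genes are a selection and not always the largest changes: the highest change of a splicing regulator in fasted fat was 0.72.

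In each tissue limma 3.58.1 (R 4.3.3; lmFit, eBayes with trend) fitted 4 group means (genotype by feeding state) plus a fixed block for the 6 replicate numbers, because the design text speaks of complete blocks. The labels do not say that the number is the block. Same-numbered arrays of different groups had a median residual correlation of 0.00750 in liver and 0.0170 in fat. Liver and fat were joined by genotype, feeding state and number, and for 18 of 24 liver arrays the best match among the fat arrays of the group had the same number. Responses and levels of the tissues were compared on all 48 arrays, with a random block for each gilt (correlation 0.0841). Tests were 2-sided with Benjamini-Hochberg adjustment, and SE is that of the model. Python 3.11.15, SciPy 1.17.1, pandas 2.3.3 and Matplotlib 3.10.9 were used for the rest. No sequences are printed, as no table of them was used here.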

Additional observations from a re-analysis of the deposited data

Results flagged for a closer look

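In 128 groups of 6 arrays and measures, 7 had 1 array far from the other 5 by Dixon's ratio at the 95% level, where chance gives about 1 in 20. In fasted D298 fat, replicate 2 had an hnRNP mean of 11.34 (others 11.05 to 11.15) and an SNRPC signal of 1785 (others 1287 to 1428). In fed D298 fat, the SR protein mean of replicate 3 was 10.91 (others 10.66 to 10.71). In fed N298 fat, replicate 1 had an SF3B5 signal of 1535 (others 1852 to 2068) and replicate 5 a PRPF4B signal of 923 (others 691 to 735). In liver, fasted D298 replicate 5 had a PRPF4B signal of 519 (others 663 to 758) and fasted N298 replicate 3 an SR protein mean of 9.70 (others 9.95 to 10.09).

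The fasting response differed between fat and liver, in limma with the gilt as a random block, for 12 genes. It was lower in fat for SNRPF (-0.62), SF3B5 (-0.57), SNRPA (-0.53), HNRNPA2B1 (-0.49), SNRPD3 (-0.43), SRSF6 (-0.42), SNRPC (-0.40), SNRPD1 (-0.38) and SRSF9 (-0.21). It was higher in fat for HNRNPH3 (0.39), PRPF4B (0.37) and HNRNPF (0.26).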

How the results depend on the processing

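In the alternative fits of the same probe sets no call of a fasting comparison changed direction. Without the replicate block (no replicate block), and with it as a random block, 0 members were called higher in liver where the fit with the block called 2, and HNRNPK lost its call in fat. With the replicate block beside the gilt block, SRSF6 and SRSF9 lost the call of a tissue difference. The members called in liver were 1 higher without trend, with array weights and without the arrays of lowest correlation (an alternative chosen after seeing the data), and 1 lower without trend. With median-centring 4 were higher and 1 lower in liver, 8 higher in fat (PRPF 2, hnRNP 4, SF3 and U2AF 0) and 0 higher in the tissue difference. With quantile normalization 2 PRPF genes were higher in fat and 6 members in the tissue difference. With only bright probe sets 2 SF3 and U2AF genes were higher and 1 SR gene was lower in fat. The hnRNPs lower in fat were 1 without trend and 1 without the arrays of lowest correlation. The second brightest probe set was called in 7 of 19 genes in fat, 0 in liver and 2 in the tissue difference. It turned HNRNPA2B1 (0.45) and HNRNPK (-0.0157) in fat, and HNRNPA2B1 (0.23), SRSF6 (0.39) and SRSF9 (0.0626) in the tissue difference.

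Leaving out each replicate number gave 0 to 1 higher and 0 to 2 lower in liver, 3 to 5 PRPF genes higher, 1 to 2 SR genes lower and 1 hnRNP lower in fat, and 0 to 3 higher and 4 to 9 lower in the tissue difference. Of the 7 snRNP falls in fat, that of SNRPD3 was not called without number 3, 4 or 6. That of SNRPB was not called without number 5 or 6.

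For fat minus liver, median-centring gave 18 higher and 24 lower and turned HNRNPD (-0.0752), HNRNPUL1 (-0.18), PRPF18 (-0.10), PRPF19 (-0.0933), PRPF4 (-0.25), PRPF4B (-0.0128), SF3A3 (-0.17), SF3B2 (-0.10), SF3B4 (-0.0178), SF3B5 (-0.0266), SNRPA1 (-0.22), SNRPB (-0.0221), SNRPC (-0.20), SNRPF (-0.00907), SRSF10 (-0.0426) and SRSF2 (-0.16). Quantile normalization turned HNRNPA2B1 (0.20), PRPF4 (-0.10) and SNRPA1 (-0.0193). The second probe set turned HNRNPA2B1 (0.72), HNRNPR (0.0966), SNRPG (0.50) and SRSF1 (0.0645). The cause was not tested. In the liver interaction of genotype and fasting, which gave no call, median-centring moved the median of all genes from -0.05 to 0.07. Dim signal limits SRSF12, HNRNPU and U2AF2.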
